A study of Mus musculus with 41 samples.

Results

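The mitosis genes described here are 40 genes chosen by name for their known work in cell division, from entry into mitosis to the final cut between daughter cells. They were chosen with earlier results of these data known. All 40 were found among the 24410 gene symbols of the deposited table, and all 40 were among the 15204 genes with enough reads to test. R1-iCas9 mouse ES cells, whose Cas9 is switched on by doxycycline, were the starting material, and doxycycline was given at 1 µg/ml the day before transfection. At day 0 the cells received guides against Eed, Ezh2, Brd8 or Nr6a1, with 5 crRNAs pooled for a gene, or a non-targeting control guide (NT). They were then taken through differentiation to ventral spinal cord progenitors, and total RNA was sequenced at days 7, 9 and 11. All groups shared the same medium: bFGF at 10 ng/ml at the start, 5 µM CHIR99021 on day 2, 100 nM retinoic acid with 10 nM SAG (a Smoothened agonist) from day 3, and SAG without retinoic acid from day 5. The 41 libraries fall into 15 groups. NT, Eed and Ezh2 had 3 libraries at each day, Brd8 had 3 at days 7 and 11 and 2 at day 9, and Nr6a1 had 2 at each day. Each knockout culture was a transfected pool, not a clone, so cells with an intact target gene could remain. The labels do not say whether replicates were separate cultures, so every p-value below measures the spread between these libraries only.

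Mitosis genes are switched on together late in each cell cycle and off again when a cell leaves the cycle, so their RNA is used as a sign of dividing cells in a tissue. Cyclin-dependent kinase 1 with its cyclins starts mitosis, the spindle checkpoint holds it until every chromosome is attached, and the anaphase promoting complex (APC/C) then marks securin and cyclin B for destruction. In the spinal cord, progenitors divide next to the central canal, and their daughters leave the cycle to become neurons and later glia. Eed and Ezh2 are subunits of Polycomb repressive complex 2, which methylates histone H3 at lysine 27. Nr6a1 is an orphan nuclear receptor, and Brd8 carries a bromodomain and belongs to the TIP60 histone acetylation complex.

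Promoters of mitosis genes are known for CCAAT boxes, bound by NF-Y, and for the cell cycle genes homology region (CHR), usually TTTGAA, bound by the DREAM and B-Myb complexes. The sequences below show these motifs for the member with the highest mean level of its role, where RefSeq (GRCm38.p6) gave a promoter window. Each run is the 250 bases before the start, 5′ to 3′ on the gene's strand, with CCAAT or TTTGAA on either strand in capitals. Where RefSeq lists more than 1 start, the more upstream is shown.
Bub3 (chr7:131560120-131560369, plus strand): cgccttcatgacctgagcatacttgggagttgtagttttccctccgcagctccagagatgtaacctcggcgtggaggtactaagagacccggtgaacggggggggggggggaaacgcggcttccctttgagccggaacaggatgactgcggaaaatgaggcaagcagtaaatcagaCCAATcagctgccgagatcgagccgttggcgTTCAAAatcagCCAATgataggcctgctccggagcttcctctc
Ube2c (chr2:164769679-164769928, plus strand): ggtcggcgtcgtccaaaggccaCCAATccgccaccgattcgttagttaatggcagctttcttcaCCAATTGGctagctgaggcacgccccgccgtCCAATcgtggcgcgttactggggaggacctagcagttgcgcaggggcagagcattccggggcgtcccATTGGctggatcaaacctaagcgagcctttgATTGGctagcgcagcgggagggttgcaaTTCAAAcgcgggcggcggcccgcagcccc
Cenpf (chr1:189688087-189688336, minus strand): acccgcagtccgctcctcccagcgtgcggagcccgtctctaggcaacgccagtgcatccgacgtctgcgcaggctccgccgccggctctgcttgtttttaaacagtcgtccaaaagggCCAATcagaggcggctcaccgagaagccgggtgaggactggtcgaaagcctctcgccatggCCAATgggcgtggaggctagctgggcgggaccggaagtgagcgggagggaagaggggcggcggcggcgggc
Prc1 (chr7:80294201-80294450, plus strand): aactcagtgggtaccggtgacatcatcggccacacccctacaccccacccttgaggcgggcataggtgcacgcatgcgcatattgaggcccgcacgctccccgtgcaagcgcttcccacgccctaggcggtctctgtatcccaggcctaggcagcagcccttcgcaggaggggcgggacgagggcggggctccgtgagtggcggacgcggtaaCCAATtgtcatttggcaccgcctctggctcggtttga
Mki67 (chr7:135716380-135716629, minus strand): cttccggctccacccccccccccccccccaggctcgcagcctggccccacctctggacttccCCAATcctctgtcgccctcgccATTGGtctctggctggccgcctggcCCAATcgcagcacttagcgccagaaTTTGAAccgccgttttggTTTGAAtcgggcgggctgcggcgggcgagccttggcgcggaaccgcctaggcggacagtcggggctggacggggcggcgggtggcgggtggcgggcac
The Ube2c run holds 6 CCAAT matches, of which a pair overlaps on opposite strands, and 1 TTTGAA match. The Mki67 run holds 3 CCAAT and 2 TTTGAA matches. Bub3 has 2 CCAAT and 1 TTTGAA, and Cenpf has 2 CCAAT and no TTTGAA before the start. Prc1 has 1 CCAAT, and no TTTGAA before this start. Its more downstream start, not shown, has a TTTGAA 24 bases before it. Windows of 300 bases (250 before to 50 after the start) were given for 34 of the 40 members, as 36 windows. Of these, 75% held at least 1 CCAAT, against 37.5% of the 14473 windows of all tested genes, and 50% held 2 or more, against 13.5%. TTTGAA was in 77.8% of the members' windows and in 11.8% of those of all tested genes. Both motifs were in 66.7% and 4.75%. A match describes the letters only and says nothing of binding in these cells. Ccna2, Aurkb and Tpx2, the highest members of the other roles, had no window.

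Library totals ran from 8581282 to 38240227 estimated counts. Levels are in CPM, meaning counts divided by the TMM-adjusted total of their library. The lowest count of any member in any library was 51, for Ndc80. The 10 neural progenitor markers, Sox1 and Sox2 among them, were detected in all 41 libraries. Transcript levels of the targeted genes do not report on small edits. Eed at day 11 was 16.4 to 19.4 CPM under Eed guides and 13.6 to 15.4 in NT (adjusted p = 0.115). Ezh2 RNA at day 11 was higher under Ezh2 guides, by 0.37 on the log2 scale (adjusted p = 0.00736). Brd8 and Nr6a1 RNA did not pass the test under their own guides at any day. Nr6a1 ranges lay below NT at day 7 (114 to 132 against 171 to 182 CPM, adjusted p = 0.121). They did so at day 9 (55.9 to 65.3 against 68.5 to 76.8 CPM, adjusted p = 0.71) and overlapped NT at day 11. Loss of the proteins was therefore not checked by these data. NT replicate 3 and Eed replicate 3 at day 11 stood apart, with correlations to their nearest group member of 0.939 and 0.945, against 0.959 to 0.981 in the other libraries. Counts of genes called at day 11 are given with and without them, and genes whose call then changed are named. Shares of all genes called are those of the fit to all 41 libraries. None is given for a fit without some libraries or with another setting.

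The summed level of the 40 genes fell with time under every guide. In NT it was 5511 ± 137 CPM (SD, n = 3) at day 7, 3433 ± 306 at day 9 and 1955 ± 8.66 at day 11. In Eed it was 6657 ± 220, 4555 ± 614 and 3673 ± 211 CPM (n = 3 each). Day 7 therefore exceeded day 11 by 2.82-fold in NT and by 1.81-fold in Eed. Ezh2 went from 6017 ± 259 through 3677 ± 173 to 2989 ± 195 CPM, a 2.01-fold difference between the first and last day. Brd8 went from 6365 ± 163 through 5185 ± 598 (n = 2) to 3387 ± 315 CPM, a 1.88-fold difference. Nr6a1 (n = 2) went from 4935 ± 363 through 2747 ± 360 to 2041 ± 334 CPM, a 2.42-fold difference. At day 11 no library of Eed, Ezh2 or Brd8 overlapped NT, while the 2 Nr6a1 libraries, at 1805 and 2277 CPM, lay on both sides of it. In the order of the 15 groups by mean, 11 of the 14 neighbouring pairs overlapped in range. The gaps lay below Ezh2 at day 7, below Eed at day 9 and below Nr6a1 at day 9. In bulk RNA, fewer dividing cells and less mitotic RNA per dividing cell cannot be told apart.

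**Figure D1:**
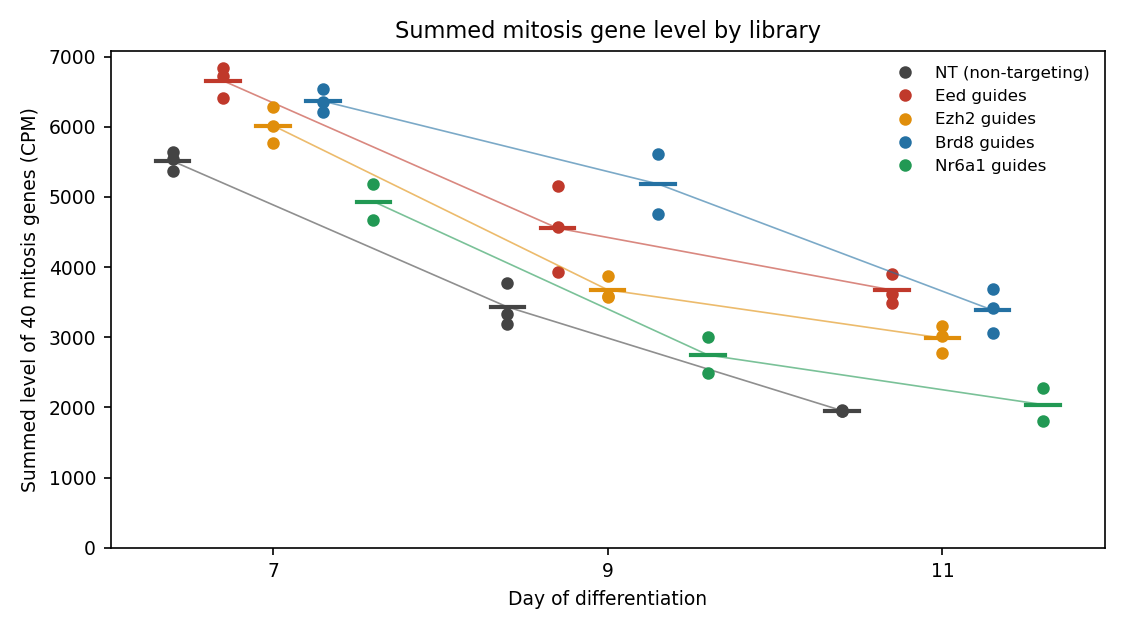
Summed level of the 40 mitosis genes (CPM, vertical axis) against day of differentiation, 1 point per library, with a bar at each group mean and lines joining the means of a genotype. The NT libraries drop to a mean of 1955 CPM at day 11, and the Eed, Ezh2 and Brd8 libraries of that day all lie above them.

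In NT cells all 40 genes fell between day 7 and day 11, with a median log2 change of -1.49 and a range from -2.02 (Ncapg) to -0.48 (Bub3), while 23.3% of all tested genes were called lower. Without the libraries that stood apart, all 40 again fell, with a median of -1.51. The fall was under way by day 9, when 35 of 40 were lower than at day 7 (median -0.65; 13.3% of all genes lower). The members not called at that step were Cdk1 (-0.39), Ccnb2 (-0.40), Ndc80 (-0.52), Nusap1 (-0.19) and Bub3 (-0.07). From day 9 to day 11, 39 of 40 fell (median -0.81; 12.9% of all genes lower), the exception being Ndc80 at -0.55. Without those libraries the count was also 39, with Ndc80 called and Kif2c not. The lowest adjusted p-values of the first step belonged to Kif20a (-1.01, 3.01e-09), Ncapd2 (-0.86, 3.35e-09) and Mki67 (-0.88, 1.01e-07). In the later step they belonged to Top2a (-1.13, 1.88e-09), Kif11 (-1.05, 2.37e-09) and Ncapg (-1.23, 1.54e-08). The ribosomal RNA precursor Rn45s took 14.1 to 14.7% of NT counts at day 7 and 5.18 to 6.79% at day 11. Its part in the fall was not tested.

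The same 40 genes also fell from day 7 to day 11 under each set of guides. In Ezh2 and in Nr6a1 all 40 were called lower, with medians of -1.05 and -1.32, where 18.8% and 16.8% of all genes were lower. In Eed 39 fell (median -0.86; 19.4% of all genes lower), and Nusap1 did not pass the test at -0.25. Without Eed replicate 3 and NT replicate 3 of day 11, Pttg1 and Ndc80 lost their call in Eed, which left 37. In Brd8 38 fell (median -0.94; 19.3% of all genes lower), and Bub3 at -0.23 and Nusap1 at -0.28 did not pass. In the fit without those libraries Bub3 passed in Brd8, which made 39, and the Ezh2 and Nr6a1 counts were again 40. The adjusted p-values were lowest for Ncapd2 (-0.86) in Eed, Kif20a (-1.27) in Ezh2, Kif4 (-1.13) in Brd8 and Ncapd2 (-1.22) in Nr6a1.

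**Figure D2:**
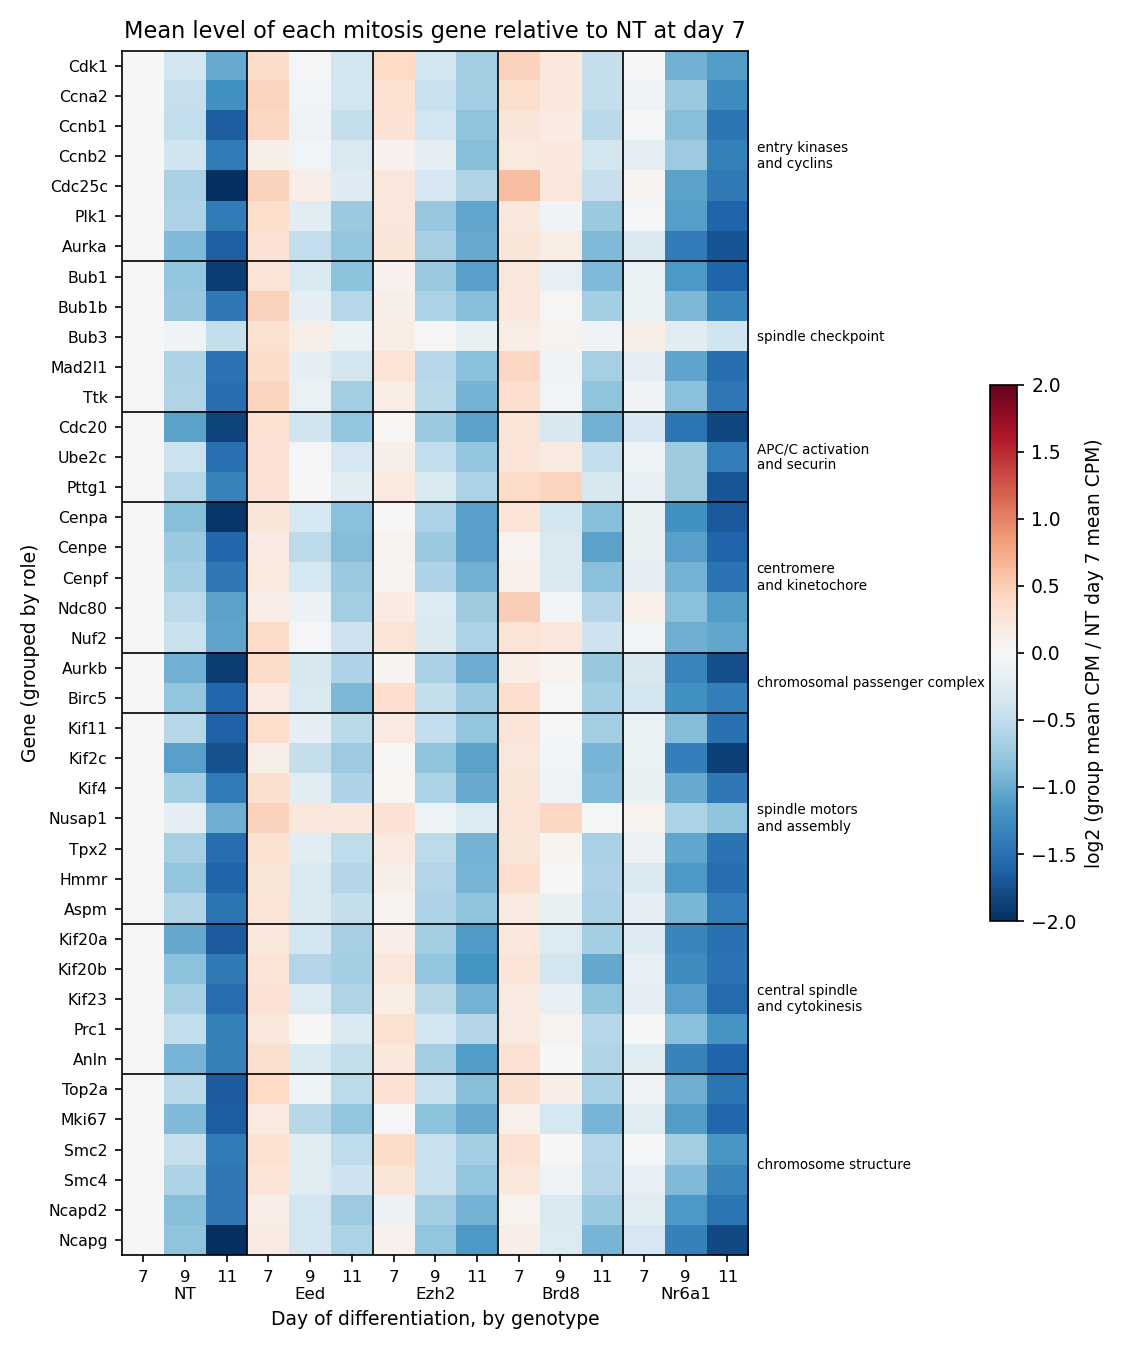
Log2 ratio of each gene's mean CPM in a group to its mean in NT at day 7 (colour, which saturates at -2 and 2), with genes in rows by role and groups in columns by genotype and day. NT at day 11 is the lowest column of its panel for all 40 genes, where 40 of 40 passed the test against day 7, and Bub3 stays nearest to its day 7 level there.

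At day 11 mitosis genes were higher than in NT under 3 of the 4 sets of guides. Under Eed guides, 39 of 40 rose, with a median of 0.99 and a range of 0.35 to 1.73, where 13.3% of all tested genes were called higher. Without the 2 libraries that stood apart the count was also 39 and the median 0.92, with Ndc80 called and Bub3 (0.29, adjusted p = 0.0802) not. Under Ezh2 guides 34 rose (median 0.65, range 0.23 to 1.39; 5.22% of all genes higher). Without those libraries 30 did so: Ccnb2, Aurka, Ttk, Cenpf and Kif2c lost their call and Plk1 gained it. Under Brd8 guides 38 rose (median 0.81, range 0.39 to 1.54; 10.3% of all genes higher), and all 40 did so without them. In all 3 comparisons and for all 40 genes the sign was the same without these libraries. The genes not called were Ndc80 in Eed (0.42), and Kif20b (0.39) and Ndc80 (0.49) in Brd8. In Ezh2 they were Nuf2, Plk1, Cdk1, Anln, Kif20b and Ndc80, at 0.23 to 0.42. No member was called lower. These comparisons share the NT libraries, so their values are given side by side and their likeness is not counted as a result. The median log2 change of all tested genes was 0.0233 in Eed, 0.0301 in Ezh2 and 0.0221 in Brd8. With only the compared groups in the fit, the Ezh2 count was 23, and the share of all genes called in that fit is not given. Under all 12 alternatives (other settings or libraries left out) the call held for 37 genes in Eed, 23 in Ezh2 and 36 in Brd8. The called genes that lost it in some alternative were Bub3 and Birc5 in Eed, and Cdk1 and Cenpe in Brd8. In Ezh2 they were Ccnb2, Aurka, Bub3, Ttk, Pttg1, Cenpa, Cenpe, Cenpf, Birc5, Kif2c and Kif4.

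Among the kinases and cyclins of mitotic entry, all 7 rose in Eed and in Brd8 and 5 of 7 in Ezh2 at day 11. Ccna2, the cyclin that acts from S phase into early mitosis, stood in the NT libraries at 197, 199 and 191 CPM at day 7, at 138, 166 and 125 at day 9, and at 85.8, 84.2 and 82.9 at day 11. At day 11 the Eed libraries had 154, 148 and 154 CPM, the Ezh2 libraries 134, 117 and 114, and the Brd8 libraries 155, 131 and 137. None of these overlapped NT, and the NT days did not overlap each other. The log2 differences from NT were 0.85 ± 0.10 (SE) in Eed, 0.53 ± 0.10 in Ezh2 and 0.74 ± 0.10 in Brd8, with adjusted p of 5.94e-08, 0.000588 and 1.21e-06. Cdc25c, the phosphatase that activates Cdk1, had the widest difference of the 40 genes in each of these comparisons. It was at 5.53 ± 0.57 CPM in NT, 18.5 ± 2.61 in Eed, 14.5 ± 1.93 in Ezh2 and 16.1 ± 2.46 in Brd8 (n = 3 each), log2 differences of 1.73, 1.39 and 1.54. Ccnb1, the B-type cyclin that drives entry, rose by 1.17, 0.84 and 1.11 in Eed, Ezh2 and Brd8. Ccnb2, the other B-type cyclin, rose by 1.09, 0.54 and 1.03, and Aurka, the centrosome kinase, by 0.84, 0.62 and 0.74. Plk1, the Polo kinase, rose by 0.66 in Eed and 0.64 in Brd8, and was at 0.36 in Ezh2, short of the threshold. Cdk1, the entry kinase itself, rose by 0.65 and 0.54 in Eed and Brd8, and was at 0.32 in Ezh2, which did not pass.

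All 5 spindle checkpoint genes rose at day 11 under Eed, Ezh2 and Brd8 guides, and Bub3 moved least. Bub3 partners Bub1 and BubR1 at kinetochores. Its NT libraries had 102, 92.2 and 97.7 CPM at day 7, 86.6, 95.4 and 96.2 at day 9 and 63.9, 69.9 and 75.6 at day 11. The day 11 libraries had 79.2, 84.6 and 104 CPM in Eed, 75.4, 93.1 and 94.5 in Ezh2, and 88.1, 89.9 and 98.5 in Brd8. Days 7 and 9 of NT overlapped, and at day 11 the lowest Ezh2 library lay within the NT range. Bub3 differed from NT by 0.35 ± 0.10 in Eed, 0.33 ± 0.10 in Ezh2 and 0.40 ± 0.10 in Brd8 (adjusted p = 0.00834, 0.028 and 0.0033). Leaving out Eed replicate 3 took the Eed value to 0.23 (adjusted p = 0.114), and leaving out NT replicate 1 gave 0.29 (0.0591). In Ezh2, the call for Bub3 was also lost without any 1 of Ezh2 replicates 2 or 3 or NT replicates 1 or 2, with values of 0.28, 0.28, 0.27 and 0.34. Bub1, a checkpoint kinase, rose by 1.05, 0.78 and 0.99 in Eed, Ezh2 and Brd8, and Bub1b, which encodes BubR1, by 0.85, 0.57 and 0.74. Mad2l1, the Cdc20 inhibitor Mad2, rose by 1.11, 0.65 and 0.81. Ttk, the kinase Mps1 that starts checkpoint signalling, rose by 0.82, 0.58 and 0.71. In Ezh2 the call for Ttk held in 6 of 12 alternatives, and that for Bub3 in 7.

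The APC/C activators and securin rose in all 3 comparisons. Ube2c, the ubiquitin-conjugating enzyme that works with the APC/C, was at 127, 120 and 112 CPM in NT at day 7, 89.6, 102 and 75.7 at day 9 and 44.8, 39.3 and 43.0 at day 11. At day 11 it was at 96.6, 88.0 and 98.1 CPM in Eed, 72.2, 66.0 and 68.4 in Ezh2, and 90.5, 81.9 and 82.9 in Brd8. Every one of these 9 libraries lay above NT, and the Ezh2 libraries lay below those of Eed and Brd8. The log2 differences from NT were 1.15 ± 0.14, 0.70 ± 0.14 and 1.01 ± 0.14 (adjusted p = 3.79e-08, 0.000629 and 8.1e-07). Cdc20, the APC/C activator of early mitosis, rose by 1.08, 0.79 and 0.90 in Eed, Ezh2 and Brd8. Pttg1, securin, rose by 1.11, 0.70 and 1.01.

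Of the 5 centromere and kinetochore genes, 4 rose in Eed, 3 in Ezh2 and 4 in Brd8 at day 11. Cenpf, a large protein of the outer kinetochore, was at 235, 243 and 240 CPM in NT at day 7, 149, 157 and 144 at day 9 and 100.4, 91.0 and 76.2 at day 11. At day 11 the Eed libraries had 156, 134 and 139 CPM, the Ezh2 libraries 116, 105 and 147, and the Brd8 libraries 145, 134 and 125. All lay above the NT libraries of that day. Cenpf was higher by 0.68 ± 0.11 in Eed, 0.46 ± 0.11 in Ezh2 and 0.59 ± 0.11 in Brd8 (adjusted p = 1.63e-05, 0.00681 and 0.000189), and the Ezh2 call was lost without Ezh2 replicate 3 (0.31) or NT replicate 3 (0.36). Cenpa, the histone H3 variant that marks centromeres, rose by 1.12, 0.88 and 1.10 (1.66, 1.31 and 1.54 without the libraries that stood apart), and Cenpe, a kinetochore motor, by 0.72, 0.50 and 0.51. Nuf2 and Ndc80 belong to the same microtubule-binding complex. Nuf2 rose by 0.64 in Eed and 0.63 in Brd8 and was at 0.42 in Ezh2, and Ndc80 was at 0.42, 0.35 and 0.49 without passing in any of them. Without the libraries that stood apart, Ndc80 was at 1.02 in Eed and 0.78 in Brd8, and both passed. Per kilobase of exon, Ndc80 was the lowest of the 40 at 2.46 CPM, and its SE was 0.27 in the Eed comparison.

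Both genes of the chromosomal passenger complex, which corrects faulty attachments and moves to the spindle centre at anaphase, rose in the 3 comparisons. Aurkb, its kinase, was at 72.2, 61.9 and 75.7 CPM in NT at day 7, 37.1, 39.5 and 30.9 at day 9 and 23.9, 18.4 and 14.0 at day 11. At day 11 it was at 42.1, 47.5 and 47.0 CPM in Eed, 38.3, 31.0 and 36.4 in Ezh2 and 44.4, 46.2 and 33.9 in Brd8. No library of these groups overlapped NT at day 11. Aurkb differed by 1.27 ± 0.17, 0.90 ± 0.17 and 1.14 ± 0.17 (adjusted p = 4.29e-07, 0.000441 and 3.73e-06). Birc5, survivin, rose by 0.66, 0.81 and 0.87 in Eed, Ezh2 and Brd8.

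All 7 spindle motor and assembly genes rose in the 3 comparisons. Tpx2, which activates Aurora A on the spindle, was at 239, 228 and 215.5 CPM in NT at day 7, 133, 160 and 137 at day 9 and 77.1, 75.6 and 85.6 at day 11. At day 11 it was at 143, 152 and 185 CPM in Eed, 120.2, 117 and 117.5 in Ezh2, and 145, 129.6 and 162 in Brd8. The NT libraries of day 11 lay below all of these. Tpx2 differed by 1.01 ± 0.11 in Eed, 0.57 ± 0.11 in Ezh2 and 0.87 ± 0.11 in Brd8 (adjusted p = 1.44e-08, 0.000687 and 3.74e-07). Kif11, the motor that pushes spindle poles apart, had the lowest adjusted p of the 40 genes in Eed (1.09, 1.81e-09) and in Ezh2 (0.83, 3.15e-06), and it rose by 0.93 in Brd8. Kif2c, a microtubule depolymerase, rose by 1.00, 0.67 and 0.80, and Kif4, a chromosome arm motor, by 0.79, 0.40 and 0.52. In Ezh2 the calls for Kif2c and Kif4 each held in 8 of 12 alternatives. Hmmr, a spindle protein, rose by 1.02, 0.68 and 0.99, and Aspm, a spindle pole protein mutated in microcephaly, by 0.97, 0.65 and 0.80. Nusap1, which bundles spindle microtubules, rose by 1.18, 0.69 and 0.95. In Eed at day 11 its mean was 76.9 ± 10.4 CPM, against 33.9 ± 4.86 in NT at that day and 66.5 ± 5.75 in NT at day 7.

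All 5 central spindle and cytokinesis genes rose in Eed, 4 in Brd8 and 3 in Ezh2. Prc1, which bundles the central spindle, was at 109, 91.1 and 95.8 CPM in NT at day 7, 65.85, 84.6 and 60.3 at day 9 and 44.6, 42.5 and 29.0 at day 11. At day 11 it was at 75.01, 84.75 and 79.7 CPM in Eed, 66.5, 62.4 and 68.3 in Ezh2 and 73.1, 65.6 and 61.6 in Brd8. None overlapped NT. Prc1 differed by 1.04 ± 0.14, 0.76 ± 0.14 and 0.78 ± 0.14 (adjusted p = 8.91e-07, 0.000475 and 0.000112). Kif20a and Kif23 are cytokinesis motors. Kif20a rose by 1.00, 0.53 and 0.98, and Kif23 by 0.93, 0.57 and 0.72. In GENCODE vM21 the starts of Kif20a and Brd8 lie 12 bases apart on opposite strands, and whether cuts in Brd8 touched Kif20a was not tested. Anln, the contractile ring protein anillin, rose by 0.87 in Eed and 0.74 in Brd8 and was at 0.23 in Ezh2. Kif20b, another late mitotic motor, rose by 0.73 in Eed and was at 0.24 in Ezh2 and 0.39 in Brd8, short of the threshold.

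All 6 chromosome structure genes rose in the 3 comparisons. Mki67, which coats mitotic chromosomes and is the standard marker of cycling cells, was at 927, 982 and 891 CPM in NT at day 7, 492, 537 and 491 at day 9 and 300, 291 and 301 at day 11. At day 11 it was at 544, 475 and 593 CPM in Eed, 472, 396 and 527 in Ezh2 and 557, 418 and 496 in Brd8. The lowest of these lay above the highest NT library of the day. Mki67 differed by 0.85 ± 0.11, 0.64 ± 0.11 and 0.72 ± 0.11 (adjusted p = 4.04e-07, 0.000172 and 9.94e-06). Top2a, the topoisomerase that untangles sister chromatids, rose by 1.13, 0.81 and 1.02, with the lowest adjusted p of the 40 genes in Brd8 (3.6e-08). Smc2 and Smc4 form the core of condensin, which compacts chromosomes, and Ncapd2 and Ncapg are condensin I subunits. Ncapg, the gene with the steepest fall in NT, rose by 1.38, 0.87 and 1.09. Smc2 rose by 0.88, 0.72 and 0.82, Smc4 by 1.01, 0.65 and 0.83, and Ncapd2 by 0.70, 0.49 and 0.69. Per kilobase of exon, Mki67 (64.6 CPM) and Ncapd2 (64.4 CPM) had the highest mean levels of the 40 genes.

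**Figure D3:**
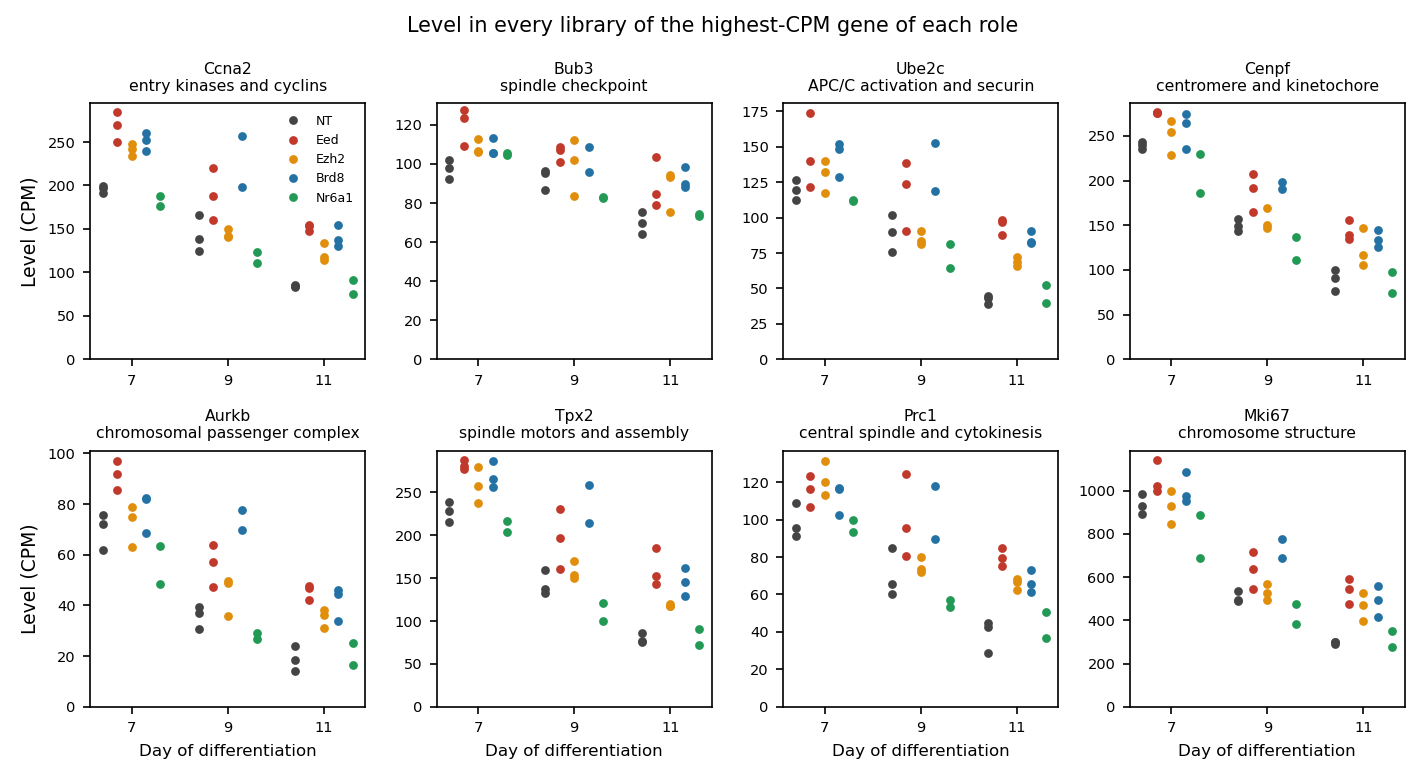
CPM (vertical axis, from 0) of the highest-CPM gene of each role in every library, against day, coloured by genotype. Mki67 in NT goes from 927, 982 and 891 CPM at day 7 to 300, 291 and 301 CPM at day 11, and Bub3 covers the narrowest range.

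Fewer of the 40 genes passed the test against NT at day 7 than at day 11 under Eed, Ezh2 and Brd8 guides. At day 7, 7 genes were higher in Eed (median of the 40 genes 0.29; 2.9% of all genes higher). These were Ccna2 (0.45), Bub1b (0.46), Top2a (0.40), Kif11 (0.36), Ccnb1 (0.41), Nusap1 (0.45) and Bub3 (0.30), with adjusted p from 0.0026 to 0.0448. The count fell to 2 when Eed replicate 1 or 2, or NT replicate 2 or 3, was left out. It was 22 with only the compared groups in the fit. In Brd8, Ccna2 (0.36), Cdc25c (0.62) and Mad2l1 (0.42) were higher at day 7 (median 0.24; 1.3% of all genes higher). None of these remained without Brd8 replicate 1 or 2 or NT replicate 1 or 2, and 1 was called without NT replicate 3. Under Ezh2 guides edgeR called none of the 40 at day 7 (median 0.16; 0.151% of all genes called either way), 9 had an unadjusted p under 0.05, and DESeq2 also called 0. Counts at an unadjusted p under 0.05, here and below, have no share of all genes beside them. The shares given are for adjusted p. All 40 genes lay above 0 in Eed and in Brd8 at day 7, and 37 did so in Ezh2. The median log2 change of all tested genes was 0 in each.

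At day 9, 36 genes were higher in Brd8 than in NT (median 0.60; 7.72% of all genes higher), led by Aurka (1.02), Kif20a (0.74) and Ccna2 (0.67). The exceptions were Kif20b (0.45), Cenpa (0.49), Ndc80 (0.47) and Bub3 (0.15). Brd8 had 2 libraries at this day, and without replicate 2 the count was 13. In Eed 19 were higher (median 0.41; 2.99% of all genes higher), led by Kif20a (0.63), Ncapd2 (0.47) and Bub1b (0.58). The Eed libraries were spread, at 3935 to 5163 CPM for the summed level against 3189 to 3777 CPM in NT. Leaving out Eed replicates 1, 2 and 3 in turn gave 29, 4 and 2 genes in Eed at day 9. Leaving out NT replicate 1 gave 4, and NT replicate 3 gave 2. In Ezh2 edgeR called 0 of the 40 at day 9 (median 0.10; 0% of all genes called), and DESeq2 also called 0. There 2 members, Kif20a (0.32) and Aurkb (0.32), had an unadjusted p under 0.05.

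Under Nr6a1 guides no mitosis gene passed the test against NT at any day. At day 9 all 40 genes lay below NT, with a median of -0.36, but edgeR called 0 of them (0.151% of all genes called either way). Of the 40, 28 had an unadjusted p under 0.05, a threshold for which the share of all genes is not given. DESeq2 called 0. The lowest adjusted p was 0.169, for Ncapg, at 31.2 ± 0.52 CPM (n = 2) against 45.6 ± 5.65 (n = 3), a log2 difference of -0.55. Next were Kif23 (-0.43), Top2a (-0.44) and Cdk1 (-0.58). Without the filter on low counts, 7 members passed, all lower. At day 7 edgeR and DESeq2 called 0 (0.145% of all genes called by edgeR), 36 lay below NT, and 3 members, Ncapd2 (-0.24), Ncapg (-0.33) and Kif20a (-0.26), had an unadjusted p under 0.05. At day 11 both tools called 0 (0.0789% of all genes called by edgeR). The count was also 0 without the libraries that stood apart. The median was 0.07, and only Cdc25c (0.58) had an unadjusted p under 0.05.

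**Figure D4:**
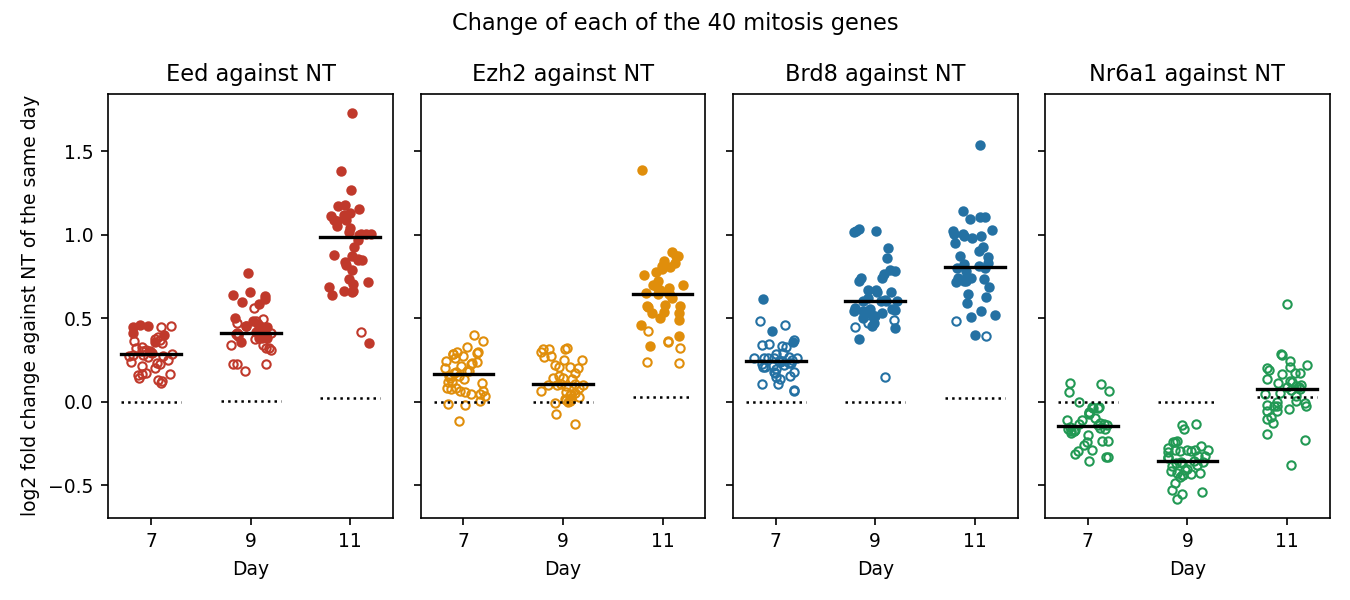
Log2 fold change against NT of the same day (vertical axis) for each of the 40 genes, in 1 panel per set of guides with day on the horizontal axis. Filled points passed the test, bars mark the median of the 40 genes and dotted lines the median of all tested genes. Medians at day 11 are 0.99 in Eed, 0.65 in Ezh2, 0.81 in Brd8 and 0.07 in Nr6a1.

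Whether the difference from NT itself changed between day 7 and day 11 was tested as an interaction. It grew for 23 of 40 genes in Eed (median increase 0.70; 4.01% of all genes with an increase), and for 18 without the 2 libraries that stood apart, where Ccnb1, Cdc20, Aurkb, Kif2c, Nusap1, Aspm, Prc1 and Smc2 lost their call and Pttg1, Cenpa and Cenpe gained it. Ncapg (1.22 ± 0.19, adjusted p = 4.21e-05), Kif20a (0.79) and Smc4 (0.74) led. In Brd8 it grew for 17 (median 0.61; 2.98% of all genes), led by Ncapg (0.96), Kif20a (0.77) and Ncapd2 (0.62), for 11 without Brd8 replicate 1 of day 11, and for 15 without the 2 libraries that stood apart (Cdc25c, Aspm and Kif23 lost, Cenpa gained). In Ezh2 it grew for 6 (median 0.44; 1.01% of all genes): Ncapd2 (0.61), Cdc25c (1.17), Kif11 (0.65), Mki67 (0.66), Ncapg (0.79) and Aurkb (0.85). The Ezh2 count was 2 without day 7 replicate 1 or day 11 replicate 3, and 3 without day 7 replicate 2 or day 11 replicate 1. Without the libraries that stood apart it was 5, with Aurkb and Ncapg lost and Cenpa gained. In Nr6a1 edgeR and DESeq2 called no member (median 0.21; 0.112% of all genes called by edgeR), and 2 members, Ncapg (0.55) and Kif20a (0.42), had an unadjusted p under 0.05. The edgeR count in Nr6a1 was also 0 without the libraries that stood apart. Bub3 showed 0.04 in Eed and 0.25 in Brd8 and did not pass.

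Eed and Ezh2 encode subunits of the same complex, and their libraries were compared directly. At day 11, 9 genes were higher in Eed than in Ezh2 (median of the 40 genes 0.32; 1.53% of all genes higher). They were Anln (0.64), Kif20a (0.47), Tpx2 (0.43), Ncapg (0.51), Mad2l1 (0.47), Kif4 (0.39), Nusap1 (0.49), Ube2c (0.45) and Smc4 (0.36), with adjusted p from 0.00856 to 0.0498. Anln stood at 71.5 ± 5.57 CPM in Eed and 45.8 ± 2.73 in Ezh2. The count was 1 (Kif20a) without the 2 libraries that stood apart. Leaving out Eed replicate 2 gave 4 and Eed replicate 3 gave 1, and leaving out Ezh2 replicates 1, 2 and 3 in turn gave 3, 2 and 0. At day 9 edgeR called 0 (median 0.31; 0% of all genes called), 24 members had an unadjusted p under 0.05, and DESeq2 called 6 of the 29 it gave an adjusted p. The unadjusted and DESeq2 counts have no share of all genes beside them, so they are not read as a result about the members. Without Eed replicate 1 of that day edgeR called 13, and without Ezh2 replicate 3 it called 1. At day 7 edgeR and DESeq2 called 0 (median 0.13; 0.151% of all genes called by edgeR), and 4 members had an unadjusted p under 0.05.

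The members moved closely together across libraries. The Pearson correlation of a gene's log2 level with the median of the other 39 over the 41 libraries ran from 0.808 (Ndc80), 0.851 (Bub3) and 0.873 (Nusap1) to 0.991 (Tpx2), with 0.984 for Kif23 and 0.983 for Smc4. These points share libraries and a common time course, so the values are a description only. Within groups, the SD of log2 level was 0.119 for Bub3 and 0.361 for Ndc80.

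Other genes of the division cycle were counted in the same comparisons, and the background shares are those given above for each. Of 81 other mitotic genes, 76 fell and 1 rose in NT from day 7 to day 11 (median -1.49), with Kif15 (-1.91), Gtse1 (-1.96) and Ncapg2 (-1.60) at the lowest adjusted p. At day 11, 69 of the 81 were higher and 1 lower in Eed (median 0.87), 41 higher in Ezh2 (0.57) and 57 higher in Brd8 (0.78). Ncaph, a condensin I subunit, was up by 1.19, 0.75 and 1.08. All 40 replication and G1/S genes fell in NT (median -1.62), and 32, 19 and 29 were higher in Eed, Ezh2 and Brd8 at day 11. Mcm3, a subunit of the replicative helicase, rose by 1.36, 0.91 and 1.24. Of 24 regulators of mitotic gene transcription, 18 fell and 1 rose in NT, and 15, 8 and 13 were higher under Eed, Ezh2 and Brd8 guides. E2f1, an activator of cell cycle genes, fell by 2.61 in NT and rose by 1.99, 1.47 and 1.84. Foxm1, an activator of mitotic genes, fell by 1.59 in NT.

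Genes of the APC/C and cohesin were counted as well. Of 16 APC/C genes, 8 fell in NT (median -0.30), where 23.3% of all genes fell. This list holds the enzyme Ube2s beside core subunits. At day 11, 1, 2 and 3 of the 16 were higher in Eed, Ezh2 and Brd8, where 13.3%, 5.22% and 10.3% of all genes were higher. Ube2s, the chain-extending enzyme of the APC/C, fell by 1.08 and rose by 0.54, 0.45 and 0.55. Of 12 cohesin genes, 8 fell and 2 rose in NT (median -0.44). At day 11, 4 were higher and 2 lower in Eed, 3 higher and 1 lower in Ezh2, and 4 higher and 1 lower in Brd8. Esco2, a cohesin acetyltransferase of S phase, rose by 1.13, 0.87 and 0.99.

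Markers of other cell types were counted too. Of all tested genes, 5.76% were lower in Eed at day 7, 3.45% in Brd8 at day 7 and 7.81% in Brd8 at day 9. At day 11 the shares lower were 10.6% in Eed, 2.7% in Ezh2 and 7.48% in Brd8. The shares higher at day 11 were 13.3%, 5.22% and 10.3%. In lists this short, counts of 1 or 2 are not read as a result about the list. Of 12 postmitotic neuron markers, 10 were lower in Eed at day 7, with a summed level of 2623 to 3251 CPM against 4350 to 4607 CPM in NT. Brd8 had 8 of 12 lower at day 7 (2977 to 3434 CPM), and 9 of 12 lower at day 9 (3928 to 4847 CPM against 6186 to 7182 CPM). At day 11, 2 of 12 were lower in Eed (4655 to 4892 CPM against 5462 to 5883 CPM), 1 in Brd8 (4876 to 5588 CPM) and 0 in Ezh2 (5514 to 6038 CPM). None of the 12 was at 0 in any library. Of 9 tested glial markers, 8 rose in NT from day 7 to day 11 (21.9% of all genes rose), from 41.9 to 55.1 CPM summed to 451 to 518 CPM. At day 11, 5 were lower in Eed (314 to 327 CPM) and 1 in Ezh2 (320 to 445 CPM). In Brd8, 3 were lower (367 to 487 CPM, overlapping NT). The summed level lay above NT at the earlier days. At day 7 it was 68.9 to 95.5 CPM in Eed, 60.2 to 83.0 in Ezh2 and 74.9 to 136 in Brd8. At day 9 it was 155 to 211, 148 to 236 and 234 to 342 CPM, against 121.5 to 137.6 in NT. In Brd8 at day 9, 3 were called higher and 0 lower (7.72% of all genes higher). Among their defining genes, Gfap was at 0 in 31 of 41 libraries and S100b in 25. Of 14 neural crest, mesoderm and epithelial markers, 6 were higher in Eed at day 11 (306 to 412 CPM summed, against 44.5 to 69.4 CPM in NT), 4 in Ezh2 (104 to 173 CPM) and 4 in Brd8 (182 to 308 CPM), while Myod1 was at 0 in 26 libraries. Of 10 neural progenitor markers, 4 were lower and 2 higher in each of the 3 groups at day 11 (1941 to 2102 CPM summed in Eed, 2265 to 2496 in Ezh2 and 2184 to 2340 in Brd8, against 2689 to 2838 in NT), with Pax6 up by 2.20 in Eed and Olig2 down, at -1.72. The 8 pluripotent cell markers summed to 58.0 to 99.0 CPM in NT at day 7 and 33.3 to 42.6 CPM at day 11, with 3 called lower (23.3% of all genes fell). Of these 8, 1 was lower in Eed and 3 in Brd8 at day 7 (26.5 to 33.45 and 12.3 to 36.5 CPM). At day 11, 2 were higher in Eed (43.4 to 61.9 CPM), 1 was higher in Ezh2 (21.8 to 49.1 CPM) and 3 were lower in Brd8 (19.1 to 33.5 CPM). Utf1 was at 0 in 5 libraries, and Pou5f1 in none. The part of these cell types in the mitosis gene differences was not tested.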

How the data were processed

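The deposited table holds estimated counts per gene symbol for each library, and 2.95% of its values have a fraction, so they were rounded to whole numbers. Per the submitters' processing notes, mm10 and DESeq2 were used. The sources used here name no aligner or counter and do not say whether counting used strand. Per the labels' protocols, total RNA was made into directional, ribodepleted libraries, although the labels' molecule field reads genomic. Totals ran from 8581282 to 38240227 counts.

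In R 4.3.3, edgeR 4.0.16 (TMM, filterByExpr, quasi-likelihood test, 1 mean per group over 41 libraries) was fitted to 15204 genes, and p-values were adjusted by Benjamini-Hochberg over all of them, with a threshold of 0.05. Every adjusted p in the text is from this test unless another tool is named, and SE is the fold change divided by the square root of F. The method was tested on simulated data: for Eed against NT at day 11 (14799 genes), 58% of genes changed by 1.5-fold and 80% of those changed by 2-fold were recovered. Only 50 genes were changed at each fold, drawn from genes above a low mean level. The real comparison called 2026 genes higher and 1619 lower, so its recovery may differ. Alternatives were DESeq2 1.42.0's Wald test, its size factors in edgeR, no filter, a replicate block, only the compared groups, and leaving out libraries.

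The 40 members, the roles and the other lists were chosen with earlier results of these data known. All 40 are named. Values per library are given for the member with the highest mean CPM of each role, and otherwise up to 3 genes with the lowest adjusted p, genes not called where most were, and a few others picked after their values were seen. Levels per kilobase use the exon union of GENCODE vM21.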

Additional observations from a re-analysis of the deposited data

Results flagged for a closer look

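The difference from NT changed between day 7 and day 11 for 23 of the 40 mitosis genes under Eed guides, for 6 under Ezh2 guides and for 17 under Brd8 guides, each by edgeR's test of the interaction between guide and day. All of these differences were larger at day 11. Of all tested genes, 4.01%, 1.01% and 2.98% were called with an increase in Eed, Ezh2 and Brd8. Without the 2 libraries that stood apart, the counts of the 40 were 18, 5 and 15. Under all 18 alternatives 14, 1 and 10 of the genes called kept their call. The 3 comparisons share the NT libraries of both days.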

How the results depend on the processing

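Counts of members called were recomputed for 26 comparisons, and no member changed direction among those called. Shares of all genes called under these alternatives are not given, so a general change in calling cannot be told apart. DESeq2's size factors and the replicate block left all 26 counts within 1.5 times: with the replicate block 39 were called in Eed, 34 in Ezh2 and 38 in Brd8 at day 11. Deviations from group means were correlated between same-numbered knockout and NT libraries, and none of 32 pairs exceeded 0.1 (range -0.0278 to 0.0798). Differently numbered pairs were not compared, so these values do not settle whether replicate numbers pair libraries. Against NT, the 7 genes called in Eed at day 7 became 16 without the filter, 22 with only the compared groups and 11 with DESeq2 (2 to 6 leaving out 1 library). The 19 in Eed at day 9 became 30 and 7 (2 to 29 leaving out 1 library). In Ezh2 at day 7, 0 became 2 and 6. In Brd8 at day 7, 3 became 5, 10 and, with DESeq2, 5 (0 to 3). In Brd8 at day 9, 36 became 13 to 35. In Nr6a1 at day 9, 0 became 7 without the filter. The increase from day 7 to day 11 in Ezh2 went from 6 to 14 without the filter (2 to 8 leaving out 1 library), and that in Brd8 from 17 to 11 to 19. Eed against Ezh2 at day 9 went from 0 to 14 without the filter and 6 with DESeq2 (0 to 13), and at day 11 from 9 to 15, to 4 with only the compared groups and to 1 without the libraries that stood apart (0 to 6). The cause was not tested. Of the fold changes of named members, 806 kept their side of the threshold and 77 did not. Of the genes called at day 11, 37 of 39 in Eed, 23 of 34 in Ezh2 and 36 of 38 in Brd8 were called under all 12 alternatives, as were 40 of 40 between NT days 7 and 11. On simulated data with few genes changed, 58% of genes changed by 1.5-fold were recovered for Eed against NT at day 11 (3 libraries each). Small changes can therefore be missed, and recovery in the real comparison may differ.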
